A study of Mus musculus with 18 samples.

Results

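Collagen chain genes were taken as every gene whose symbol is Col, a number, a and a number, which found 44 genes in each of the 13 deposited tables, out of 26337 symbols common to all of them. By the kind of protein that a chain builds, they divide into 11 fibrillar chains, 6 chains of the type IV basement membrane network, 3 of the hexagonal network, 6 of type VI beaded filaments, 1 anchoring fibril chain, 9 fibril-associated chains, 4 transmembrane chains, 2 endostatin-type chains and 2 others. Their RNA was followed across cell classes of single-cell and single-nucleus libraries of the mouse urinary bladder, across regions of tissue sections, and between bulk RNA of intact and of dissociated bladders.

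Collagens are the main protein of the extracellular matrix, and each molecule is made of 3 chains wound into a triple helix. Fibrillar chains such as those of types I, III and V build the tensile fibrils of connective tissue, type IV chains form the sheet under epithelia and around muscle cells and vessels, and type VI chains form fine filaments near cells. Fibril-associated chains decorate the surface of fibrils, and transmembrane chains are anchored in the membrane of the cell that makes them. The bladder wall has a urothelium on the inside, a collagen-rich lamina propria with fibroblasts under it, the detrusor, which is its layer of smooth muscle, and a mesothelium-covered outer surface.

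All animals were C57BL/6 mice with no stated genotype or treatment. Whole-bladder cells came from 5 libraries: 1 of 3 males aged 22 months, 1 of 3 males aged 3 months, 2 of 2 females and 2 males aged 12 months each, and 1 of 2 females and 2 males aged 24 months. Nuclei of whole bladder came from 2 females and 2 males aged 12 months in 1 library. A library of the detrusor layer alone came from 3 females aged 14 months, and a detrusor-enriched whole-bladder library from 2 females and 2 males of that age. The 4 frozen sections were of males, 2 sections at 22 months and 2 at 14 months, and the labels do not say whether sections of 1 age came from different animals. The 6 bulk libraries were of females aged 12 months, 3 of homogenized intact bladder and 3 of dissociated bladder. For every sample the labels give a number of animals, so each droplet library is a pool, and nothing says that the bulk libraries of a group came from separate animals, so p-values measure only the spread between these libraries.

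The members used most below lie on 9 chromosomes. In the RefSeq annotation of GRCm38.p6, Col1a1 is at chr11:94936224-94953042, Col1a2 at chr6:4505618-4541543, Col3a1 at chr1:45311538-45349706, Col6a1 at chr10:76708792-76726044, Col8a1 at chr16:57624256-57754737, Col8a2 at chr4:126286794-126314330, Col17a1 at chr19:47646341-47692042, Col14a1 at chr15:55307644-55520803 and Col25a1 at chr3:130180358-130599884. The RefSeq promoter table had an entry for 35 of the 44 members, 38 entries in all, of which the 250 bases before the annotated start were searched on both strands. The letters TATAAA were found in 5 of the 38 entries, CCAAT in 13 and GGGCGG in 22, against 12.4%, 33.8% and 32.7% of all 32851 promoters of the same length. Matches of GGGCGG may overlap each other, and a match describes letters only. Shown here are 3 members that were higher in dissociated bladders and highest in fibroblast-like cells (Col1a2, Col3a1 and Col6a1), the 2 hexagonal network chains that moved in opposite directions (Col8a1 and Col8a2) and the 1 member highest in urothelial-like cells (Col17a1). Each sequence is 5′ to 3′ on the strand of its gene, with matches to the 3 motifs or their reverse complements in capitals.
Col1a2, chr6:4505368-4505617, plus strand: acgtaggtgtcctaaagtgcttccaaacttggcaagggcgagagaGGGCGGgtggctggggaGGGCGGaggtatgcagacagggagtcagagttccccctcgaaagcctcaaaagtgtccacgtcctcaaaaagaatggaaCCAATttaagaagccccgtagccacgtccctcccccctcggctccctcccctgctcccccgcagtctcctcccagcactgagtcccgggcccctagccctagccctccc
Col3a1, chr1:45311288-45311537, plus strand: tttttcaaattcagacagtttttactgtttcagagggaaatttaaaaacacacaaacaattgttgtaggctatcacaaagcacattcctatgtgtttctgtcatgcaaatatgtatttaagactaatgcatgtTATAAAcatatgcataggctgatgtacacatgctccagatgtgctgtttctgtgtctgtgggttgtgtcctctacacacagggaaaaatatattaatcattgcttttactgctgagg
Col6a1, chr10:76726045-76726294, minus strand: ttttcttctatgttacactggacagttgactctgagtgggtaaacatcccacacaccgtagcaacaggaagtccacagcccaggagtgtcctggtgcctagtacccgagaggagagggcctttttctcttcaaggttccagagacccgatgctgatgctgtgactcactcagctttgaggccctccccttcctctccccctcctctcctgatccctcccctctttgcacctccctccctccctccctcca
Col8a1, chr16:57754738-57754987, minus strand: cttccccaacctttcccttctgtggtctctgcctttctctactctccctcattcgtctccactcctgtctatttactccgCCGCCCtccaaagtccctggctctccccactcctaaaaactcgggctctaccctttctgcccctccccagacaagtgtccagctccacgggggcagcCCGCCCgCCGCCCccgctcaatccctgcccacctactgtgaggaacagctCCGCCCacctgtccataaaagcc
Col8a2, chr4:126286544-126286793, plus strand: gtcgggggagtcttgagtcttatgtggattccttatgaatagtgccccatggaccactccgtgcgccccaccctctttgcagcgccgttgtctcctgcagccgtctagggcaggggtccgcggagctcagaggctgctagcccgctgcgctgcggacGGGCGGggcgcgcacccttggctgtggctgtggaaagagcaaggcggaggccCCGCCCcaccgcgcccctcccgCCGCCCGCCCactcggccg
Col17a1, chr19:47692043-47692292, minus strand: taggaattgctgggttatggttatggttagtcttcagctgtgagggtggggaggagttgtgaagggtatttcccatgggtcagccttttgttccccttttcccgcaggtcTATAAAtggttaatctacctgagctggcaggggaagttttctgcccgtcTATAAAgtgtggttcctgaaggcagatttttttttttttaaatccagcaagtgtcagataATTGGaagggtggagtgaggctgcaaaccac
The Col6a1 window held none of the 3 motifs, and the windows of Col8a1 and Col8a2 both held only GGGCGG or its reverse complement.

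The droplet libraries held 1021 to 9080 barcodes and 5197910 to 55374101 unique molecular identifiers (UMIs, 1 per captured RNA molecule, counted near the 3′ end). The nuclei library was the shallowest, with a median of 1126.5 UMIs per barcode, followed by the males of 3 and 22 months (1837 and 2524.5), while the others had 6959 to 15042. The 4 sections held 939 to 1321 spots, and the bulk libraries 23083752 to 68760791 reads. The 2 male libraries shared 64 barcodes, 1.0% of the smaller one, and no other pair of libraries with barcodes of the same length shared more than 15. Cells were clustered without the collagen genes and named "-like" from marker genes, and a level for a class is its UMI count scaled to a common total for the class (CPM) in libraries with at least 50 of its cells. In the tested comparisons further down, CPM were computed on library totals multiplied by TMM factors (trimmed mean of M values), the scale on which the fold changes were fitted. Smooth muscle-like cells reached 50 only in the nuclei and the 2 detrusor libraries, none of the 5 whole-bladder cell libraries holding that many. Schwann-like and lymphatic endothelial-like cells reached 50 only in the 2 detrusor libraries, whereas urothelial-like cells reached 50 in all droplet libraries but the detrusor-only one. In the bulk and section tables every urothelial, smooth muscle and fibroblast marker was detected in every library.

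Collagen RNA was concentrated in stromal classes. Collagen chains took a median of 1.127% of the UMIs of fibroblast-like cells (0.6665% to 2.19% over 8 libraries), 0.7196% of Schwann-like cells, 0.393% of mesothelial-like, 0.3534% of pericyte-like and 0.2979% of smooth muscle-like cells. The share was 0.1422% in blood endothelial-like cells and 0.03278% in urothelial-like cells, with ranges of 0.07769% to 0.1849% and 0.01042% to 0.1359%. Fibroblast-like cells and urothelial-like cells did not overlap in any pair of libraries. At a median of 1 CPM or more in at least 1 class there were 40 of 44 members, and by their highest median 12 belonged to Schwann-like cells, 11 to fibroblast-like, 7 to mesothelial-like, 3 each to pericyte-like and smooth muscle-like, 2 to lymphatic endothelial-like and 1 each to blood endothelial-like and urothelial-like cells. For 26 of the 40 the libraries of the highest class overlapped those of the next class. Some members were placed on few UMIs in their class. These were Col22a1 (3) and Col9a2 (6) in Schwann-like, Col26a1 (5) in lymphatic endothelial-like and Col7a1 (3) in mesothelial-like cells. The order of Schwann-like and fibroblast-like cells by number of members is therefore not firm. The medians cover unlike sets of libraries, only the 2 detrusor libraries for Schwann-like cells and 8 for fibroblast-like cells. Col15a1, for example, counted for Schwann-like cells (167.2 and 168.5 CPM), but fibroblast-like cells ranged from 13.57 to 309.9 CPM. The members with a median below 1 CPM in every class were Col2a1, Col9a1, Col10a1 and Col11a2. Classes were built from the same cells, so these levels are a description with no test.

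**Figure D1:**
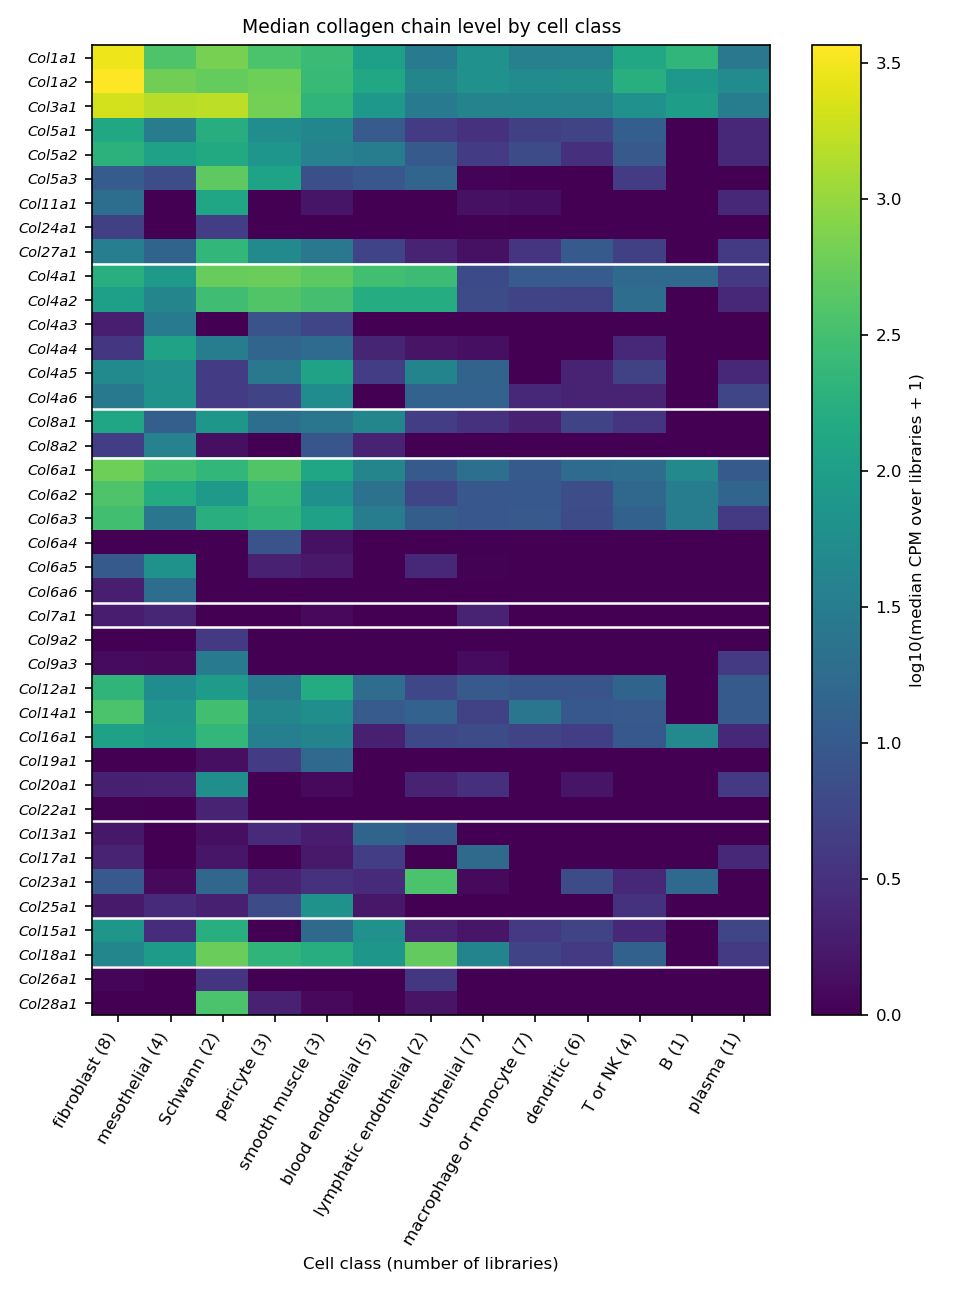
Median CPM over libraries, as log10 of CPM + 1 in color, of the 40 collagen chain genes (rows, with white lines between structural groups) in each cell class (columns, with the number of libraries). Col1a1, Col1a2 and Col3a1 stand out in fibroblast-like cells, Col28a1 in Schwann-like, Col23a1 in lymphatic endothelial-like and Col25a1 in smooth muscle-like cells.

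Among the fibrillar chains, the type I chains Col1a1 and Col1a2 were highest in fibroblast-like cells. Col1a1 had a median of 2946 CPM there (1494 to 6255 over 8 libraries), against 670.2 in Schwann-like cells (635.5 and 704.9). Col1a2 had a median of 3664 CPM (1856 to 6648), against 624.1 in mesothelial-like cells (334 to 725.4). For both, every library of fibroblast-like cells lay above every library of the next class. Col3a1, the type III chain, which co-assembles with type I in soft tissue, was spread more widely. It had a median of 2067 CPM in fibroblast-like cells (1345 to 4829) and 1619 in Schwann-like cells (1422 and 1815), and these ranges overlapped. Col5a3, a minor chain of type V fibrils, was highest in Schwann-like cells, at 531.0 CPM in the detrusor-only and 418.7 in the detrusor-enriched library, above all pericyte-like cells (21.33 to 126.2). Col27a1 was also highest in Schwann-like cells (257.0 and 202.0 CPM), above pericyte-like cells (0 to 48.83).

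The type IV chains fell into 3 patterns of class. Col4a1 and Col4a2, which form the common basement membrane network, were highest in pericyte-like cells by the median. Col4a1 was at 206.2, 561.6 and 642.8 CPM there, against 440.8, 465.1 and 707.3 in smooth muscle-like cells, so these classes overlapped. By the mean, Col4a1 was higher in smooth muscle-like than in pericyte-like cells (537.7 against 470.2 CPM). With clustering at resolution 2, Col4a1 was highest in Schwann-like and Col4a2 in smooth muscle-like cells. Col4a3 and Col4a4, which are best known from the kidney filter, were highest in mesothelial-like cells. Col4a4 was at 54.75, 348.7, 87.86 and 137.0 CPM in the males of 22 months, the nuclei, the detrusor-only and the detrusor-enriched library. Col4a3 was at 20.53, 55.05, 19.67 and 34.25 CPM in the same libraries, and for both chains no mesothelial-like library overlapped the next class. In the 22-month males, however, the Col4a3 value stood at the 3-count detection limit of the class. For pericyte-like cells, the next class for Col4a3, that limit was 21.33 CPM in the same library. Col4a5 was highest in smooth muscle-like cells (median 110.9 CPM) and Col4a6 in mesothelial-like cells (63.76), each overlapping the other class.

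The type VI chains Col6a1, Col6a2 and Col6a3 were highest in fibroblast-like cells, with pericyte-like cells next. Col6a1 had a median of 605.9 CPM in fibroblast-like cells (475.8 to 934) and 391.8 in pericyte-like cells (348.4 to 393.8), and these did not overlap. Col6a5, a rare type VI chain, was instead highest in mesothelial-like cells, at 6.843, 192.7, 62.51 and 68.5 CPM in the males of 22 months, the nuclei, the detrusor-only and the detrusor-enriched library. The lowest of these overlapped fibroblast-like cells (1.515 to 23.84). The fibril-associated chains Col14a1 and Col12a1 had medians of 359.2 and 210.7 CPM in fibroblast-like cells, with wide ranges of 118 to 1656 and 23.29 to 460.7 that overlapped the next class. The anchoring fibril chain Col7a1, which ties epithelia to the stroma, was near the limit of detection. Its median was 1.427 CPM in mesothelial-like cells on only 3 UMIs, and 1.171 in urothelial-like cells (0.701 to 5.925).

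Several less abundant chains stood far higher in 1 class than in others. Col28a1, a chain of peripheral nerve, was at 424.2 and 280.9 CPM in Schwann-like cells of the detrusor-only and detrusor-enriched libraries, against a median of 1.11 in pericyte-like cells, the next class. Col20a1, a fibril-associated chain, was at 44.05 and 74.91 CPM in Schwann-like cells. The next class, plasma-like cells, was measured in 1 library at 3.04 CPM on 2 UMIs. The transmembrane chain Col23a1 was at 402.3 and 308.7 CPM in lymphatic endothelial-like cells of those libraries. The next class, B-like cells, had 15.65 CPM on 1 UMI in 51 cells of 1 library, where a count of 0 would allow up to 46.96 CPM, and fibroblast-like cells had 2.907 to 18.14.

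The other transmembrane chains were highest in 3 different classes, 2 of them with overlap. Col25a1, which is made by muscle and is needed for motor axons to reach it, was highest in smooth muscle-like cells. Its level was 678.0 CPM in nuclei (1180 UMIs), 66.28 in the detrusor-only library (289 UMIs) and 37.47 in the detrusor-enriched library (51 UMIs), against 0 to 8.414 in pericyte-like cells. Smooth muscle-like nuclei thus lay above smooth muscle-like cells, with 1 nuclei library and no test. Col17a1, the hemidesmosome chain that anchors epithelial cells to their basement membrane, was the member highest in urothelial-like cells, with a median of 16.11 CPM (5.508 to 77.45), overlapping blood endothelial-like cells (0 to 22.5). Col13a1 had its highest median, 13.06 CPM (0 to 21.64), in blood endothelial-like cells, and lymphatic endothelial-like cells overlapped it.

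The 3 members with the highest mean CPM of each class were mostly the same few chains. Col1a1, Col1a2 and Col3a1 led in fibroblast-like, mesothelial-like, urothelial-like, macrophage-like, dendritic-like, T or NK-like, B-like and plasma-like cells. Type IV chains came first in blood endothelial-like cells, with mean CPM of 278.4 for Col4a1 and 190.2 for Col4a2, and in smooth muscle-like cells, with 537.7 and 367.4. Pericyte-like cells were led by Col3a1 (mean 831.5 CPM), Col1a2 (532.8) and Col4a1 (470.2), Schwann-like cells by Col3a1, Col1a1 and Col18a1 (552.8), and lymphatic endothelial-like cells by Col18a1 (502.7), Col23a1 (355.5) and Col4a1 (277.9). Col18a1 is a basement membrane collagen whose end fragment is endostatin. Free RNA in droplets sets a floor for such levels. Col1a1 in urothelial-like, lymphoid and myeloid cells stood at 5.82% to 6.58% of the fibroblast-like level in the males of 22 months, 2.37% to 12.9% in the males of 3 months, 0.2% to 0.725% in the whole-bladder libraries of both sexes and 5.38% and 7.71% in nuclei. Whether the levels of type I and III chains in those classes were free RNA was not tested.

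Fibroblast-like clusters differed in their collagens. Clusters led by Car3 and Cxcl14 and clusters marked by Pi16 both had at least 50 cells in 5 libraries, to which this description is limited: the males of 22 and of 3 months, the first 12-month library, the 24-month library and the detrusor-enriched library. The second 12-month library held 46 cells of the first kind and 94 of the second. In the 2 male libraries, 1143 and 1041 cells of Car3 and Cxcl14 clusters had not met the conditions for the fibroblast-like name, and they are included in this description. Of 23 members at 5 CPM or more in either kind of cluster, 16 were higher in the Car3 and Cxcl14 clusters in every one of the 5 libraries, 3 were higher in the Pi16 clusters in every one, and 4 were mixed. The clusters were built from these cells without the collagen genes, and the counts carry no test. The share of all genes that differed in this way was not counted, so the counts are no result about collagens as a group.

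Col1a1 in the Car3 and Cxcl14 clusters was at 12520, 3860, 6138, 5073 and 10210 CPM in the libraries as listed, and in the Pi16 clusters at 4074, 593.7, 1123, 881.6 and 2233 CPM. The ratio of the medians was 5.47, and the higher cluster was the same in each library although the 2 kinds overlapped across libraries. Col6a3, the longest of the common type VI chains, was at 719.6, 305.6, 680.3, 495.2 and 1433 CPM against 133.9, 23.46, 52.65, 60.54 and 243.3, a ratio of medians of 11.2 with no overlap. Col12a1, which binds the surface of type I fibrils, was at 536.8, 402.7, 410.4, 433.5 and 866.8 CPM against 104.4, 107.2, 92.96, 82.56 and 101.5, a ratio of 4.27 with no overlap. Col11a1, a minor fibrillar chain that nucleates fibrils, was at 73.73, 18.15, 62.48, 41.31 and 127.7 CPM against 9.731, 0, 0.8226, 0 and 6.12, and a count of 0 in the Pi16 clusters of the 3-month males and the 24-month library allowed up to 2.346 and 1.501 CPM.

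The members higher in Pi16 clusters in each library were Col14a1, Col15a1 and Col8a1. Col14a1, another chain bound to fibril surfaces, was at 429.9, 219.0, 584.9, 596.9 and 1052 CPM in Pi16 clusters against 34.56, 12.73, 40.78, 37.23 and 55.18 in Car3 and Cxcl14 clusters, a ratio of medians of 15.7. Col15a1, a basement membrane zone chain, was at 101.5, 22.68, 41.95, 57.54 and 188.8 CPM against 12.17, 3.299, 14.75, 8.671 and 13.84, a ratio of 4.73. Neither of these overlapped between the 2 kinds of cluster. Col8a1, a short-chain collagen known from vessel walls and subendothelial matrix, was at 370.1, 118.1, 172.8, 129.6 and 230.5 CPM against 87.58, 73.29, 58.14, 71.92 and 157.5, a ratio of 2.36 with overlap across libraries. Col12a1 and Col14a1, closely related in structure, thus stood on opposite sides. The Car3 and Cxcl14 clusters made up, with the added cells, 32.9% to 65.9% of the fibroblasts of the whole-bladder cell libraries and 38.0% of the detrusor-enriched library, and none were found in the nuclei or the detrusor-only library.

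**Figure D2:**
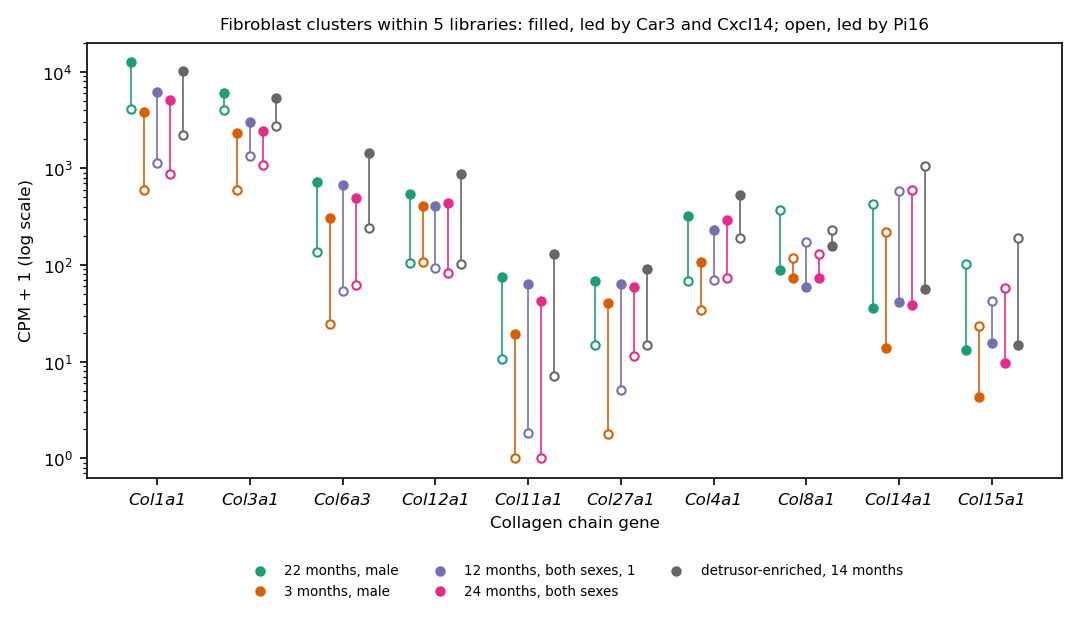
CPM + 1 on a log axis of 10 collagen chain genes in Car3 and Cxcl14 clusters (filled points) and Pi16 clusters (open points) of the 5 libraries with at least 50 cells of both, with a line joining the pair of each library. Col1a1, Col6a3 and Col12a1 lie higher in the Car3 and Cxcl14 clusters in every library, and Col14a1, Col15a1 and Col8a1 higher in the Pi16 clusters.

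Regions of the sections also differed in their collagens. Spots were clustered without the collagen genes, and a spot can hold several cells, so regions are called by their leading genes. The region whose first gene was Car3 had the highest collagen share of UMIs in each section, at 0.5758% and 1.202% for sections of 14 months, then 0.900% and 1.089% for those of 22 months. Regions of smooth muscle genes held 0.4471%, 0.7572%, 0.4316% and 0.5622% in the same order, and regions of urothelial genes 0.291%, 0.3034%, 0.2812% and 0.3674%. With only spots of at least 1000 UMIs, the region with the highest share in the first 22-month section (0.8931%) was led by Igkc instead.

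Of 25 members with at least 400 UMIs over the sections, 14 had their highest median in the Car3-led regions, 8 in regions of smooth muscle genes and 3 in regions with Msln. Col1a1 in the Car3-led region was at 1335 and 2708 CPM at 14 months and 2191 and 2884 at 22 months, which was 1.96, 2.25, 2.42 and 2.35 times the level of the whole section. Col1a1, Col1a2, Col3a1, Col6a3, Col16a1 and Col27a1 were highest in the Car3-led region in all 4 sections. Col25a1 was highest in regions of smooth muscle genes in all 4, at 41.0, 42.93, 42.62 and 38.32 CPM, against 5.921, 1.67, 2.236 and 1.87 in the Car3-led region. Its muscle values varied little between sections, and none came near a Car3-led value.

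Col8a2, the partner chain of Col8a1 in the hexagonal network, was at 46.2, 29.71, 42.43 and 52.95 CPM in regions of smooth muscle genes and at 9.178, 1.253, 2.907 and 2.992 in the Car3-led regions. In the regions with Msln, found in 3 sections, Col8a2 was at 48.16, 35.03 and 44.07 CPM, close to the muscle values. Col17a1 was at 23.51, 26.94, 20.9 and 21.77 CPM in regions of urothelial genes and at 32.57, 35.92, 24.82 and 22.82 in the Car3-led regions. Regions of smooth muscle genes had 6.735, 7.577, 5.181 and 6.36 CPM of Col17a1, below both in every section. In all sections but the second of 22 months, Foxq1 and Gsdmc2 were among the leading genes of the Car3-led region, and these genes also led some regions of urothelial genes.

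**Figure D3:**
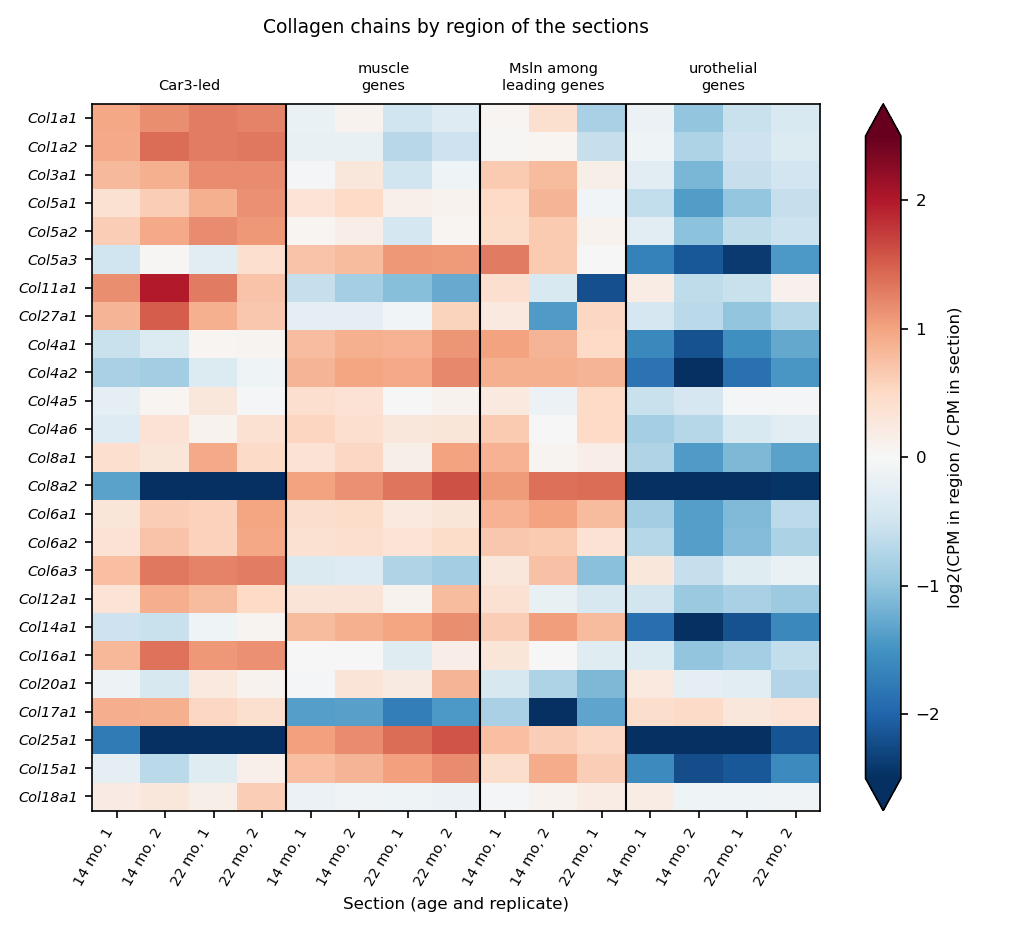
Color shows the log2 ratio of CPM in a kind of region to CPM in its whole section for 25 collagen chain genes (rows) in each section (columns, grouped by kind of region). Red is above and blue below the section, and Col1a1 is highest in the Car3-led regions and Col25a1 in regions of smooth muscle genes in all 4 sections.

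Bulk RNA of dissociated bladders held more fibrillar and type VI collagen RNA and less Col25a1 and Col8a2 than that of intact bladders. Among 16525 genes tested, 59.3% were called at an adjusted p under 0.05 (edgeR's quasi-likelihood test with Benjamini-Hochberg adjustment), 28% higher and 31.3% lower in dissociated bladders. Of the 39 members tested, 25 were higher and 4 lower, with a median log2 fold change of 0.708 against -0.029 over all genes tested. Col2a1, Col9a1, Col9a2, Col10a1 and Col26a1 had too few reads to test. Collagen chains took 1.922%, 1.572% and 1.599% of the reads of intact bladders and 3.411%, 2.592% and 2.304% of those of dissociated bladders, with no overlap. For 25 members every dissociated library lay above every intact one and for 4 every intact library lay above, where 25.3% and 28.2% of all 22846 genes with a read did so. In bulk RNA, fewer cells of a type and less RNA per cell cannot be told apart.

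Of the 10 fibrillar chains tested, 9 were called higher and none lower, with a median log2 fold change of 0.877. Col1a1 was at 3501, 2733 and 2681 CPM in intact bladders and 7706, 5583 and 5350 in dissociated ones, for a log2 difference of 1.06 (SE 0.18, adjusted p = 0.00148). Every dissociated library lay above every intact one. Col1a2 was at 4054, 3240 and 3251 CPM against 8835, 6680 and 6042, giving 1.03 on the log2 scale (SE 0.17, adjusted p = 0.0014), again with no overlap. Col3a1 was at 3473, 2540 and 2691 CPM against 6189, 4578 and 3452, a change of 0.71 in log2 units (SE 0.22, adjusted p = 0.0259), and the lowest dissociated library lay within the intact range. Col5a2, the second chain of type V fibrils, was at 346, 308 and 307 CPM against 863, 654 and 576, a difference of 1.12 on the log2 scale (SE 0.15, adjusted p = 0.000563). It was among the 5 largest rises of the family, and its groups did not overlap.

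The type IV chains did not rise as a group, 1 of 6 being called higher and 1 lower, with a median of 0.117. Col4a2 was at 810.2, 648 and 676 CPM in intact and 565, 412 and 470.5 in dissociated bladders, for a log2 difference of -0.56 (SE 0.14, adjusted p = 0.0105), with no overlap. Its partner Col4a1 was at 1183, 936 and 964 CPM against 979.9, 732 and 834, a change of -0.28 in log2 units (SE 0.14) with an adjusted p of 0.126. Col4a1 overlapped between the groups and did not pass the test. Col4a5 was at 223, 206 and 193 CPM against 301, 232 and 215, with overlap, and was not called (log2 fold change 0.27, SE 0.13, adjusted p = 0.119). The member of this group called higher was Col4a3.

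Type VI chains rose in 5 of 6 cases, with a median of 0.923. Col6a1 was at 1060, 824 and 913 CPM in intact and 1896, 1409 and 1216 in dissociated bladders (log2 fold change 0.69, SE 0.18, adjusted p = 0.0109). Col6a2 was at 704, 533 and 602 CPM against 1436, 1044 and 906 (0.88, SE 0.18, adjusted p = 0.00448). Col6a3 was at 762, 734 and 758 CPM against 1796, 1192 and 1410 (0.96, SE 0.15, adjusted p = 0.00103). None of these 3 overlapped. The 2 largest rises of the family were in the rare chains Col6a6 and Col6a5, and both overlapped between groups. Col6a6 was at 1.98, 2.08 and 4.84 CPM against 9.32, 18.2 and 3.94 (1.84, SE 0.57, adjusted p = 0.0258), and Col6a5 at 2.84, 1.33 and 2.00 against 8.29, 9.26 and 2.73 (1.75, SE 0.48, adjusted p = 0.0149). In both, the third dissociated library was near the intact ones. With replicate number as a block in the fit, Col6a6 was no longer called.

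The 2 hexagonal network chains tested moved in opposite directions. Col8a1 was at 41.3, 36.9 and 43.9 CPM in intact and 142, 104 and 138 in dissociated bladders, a difference of 1.65 on the log2 scale (SE 0.13, adjusted p = 4.32e-05). Col8a2 was at 47.5, 39.1 and 51.4 CPM against 10.9, 12.5 and 5.41, for a log2 difference of -2.25 (SE 0.28, adjusted p = 0.000387). Neither overlapped. In single cells Col8a1 was highest in fibroblast-like cells, whereas Col8a2 was highest in mesothelial-like cells, followed by smooth muscle-like cells, and their promoter windows are printed above.

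Fibril-associated chains were called higher in 4 of 7 cases and lower in 1. Col14a1 was at 599, 549 and 478 CPM in intact and 1712, 1297 and 1071 in dissociated bladders (log2 fold change 1.33, SE 0.18, adjusted p = 0.000528). Col12a1 was at 637, 660.1 and 643 CPM against 1224, 938 and 1173 (0.78, SE 0.12, adjusted p = 0.000851), and Col16a1, another chain of fibril surfaces, at 268, 227 and 211 against 555, 412 and 400.3 (0.95, SE 0.15, adjusted p = 0.00121). All 3 lay apart. Col19a1, a rare chain of basement membrane zones that was highest in smooth muscle-like cells, was at 1.29, 2.27 and 1.32 CPM against 0.798, 0.694 and 0.805 (-1.12, SE 0.31, adjusted p = 0.0154), and fell with no overlap.

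The transmembrane chains held the largest fall. Col25a1 was at 61.1, 67.1 and 57.3 CPM in intact and 4.11, 4.86 and 2.64 in dissociated bladders, a change of -3.99 in log2 units (SE 0.20, adjusted p = 4.95e-06). Each intact library was far above each dissociated one. Col17a1 was at 25.9, 18.2 and 19.8 CPM against 35.0, 31.2 and 40.7 (0.75, SE 0.15, adjusted p = 0.00412), and Col23a1 at 18.1, 11.4 and 9.44 against 29.3, 21.6 and 29.3 (1.05, SE 0.24, adjusted p = 0.00765), both without overlap. The anchoring fibril chain Col7a1 was at 7.89, 8.19 and 8.27 CPM against 11.9, 11.2 and 14.2 (0.61, SE 0.13, adjusted p = 0.00416), also apart. The endostatin-type chains Col15a1 (237, 175 and 181 CPM against 405, 295 and 219) and Col18a1 (236, 187 and 219 against 306, 244 and 290.4) were called higher, the first with overlap and the second without, at log2 fold changes of 0.63 (SE 0.22, adjusted p = 0.0414) and 0.39 (SE 0.12, adjusted p = 0.0254). Col28a1 was at 13.8, 11.6 and 7.78 CPM against 8.97, 7.79 and 10.8, and was not called (-0.27, SE 0.22, adjusted p = 0.319).

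**Figure D4:**
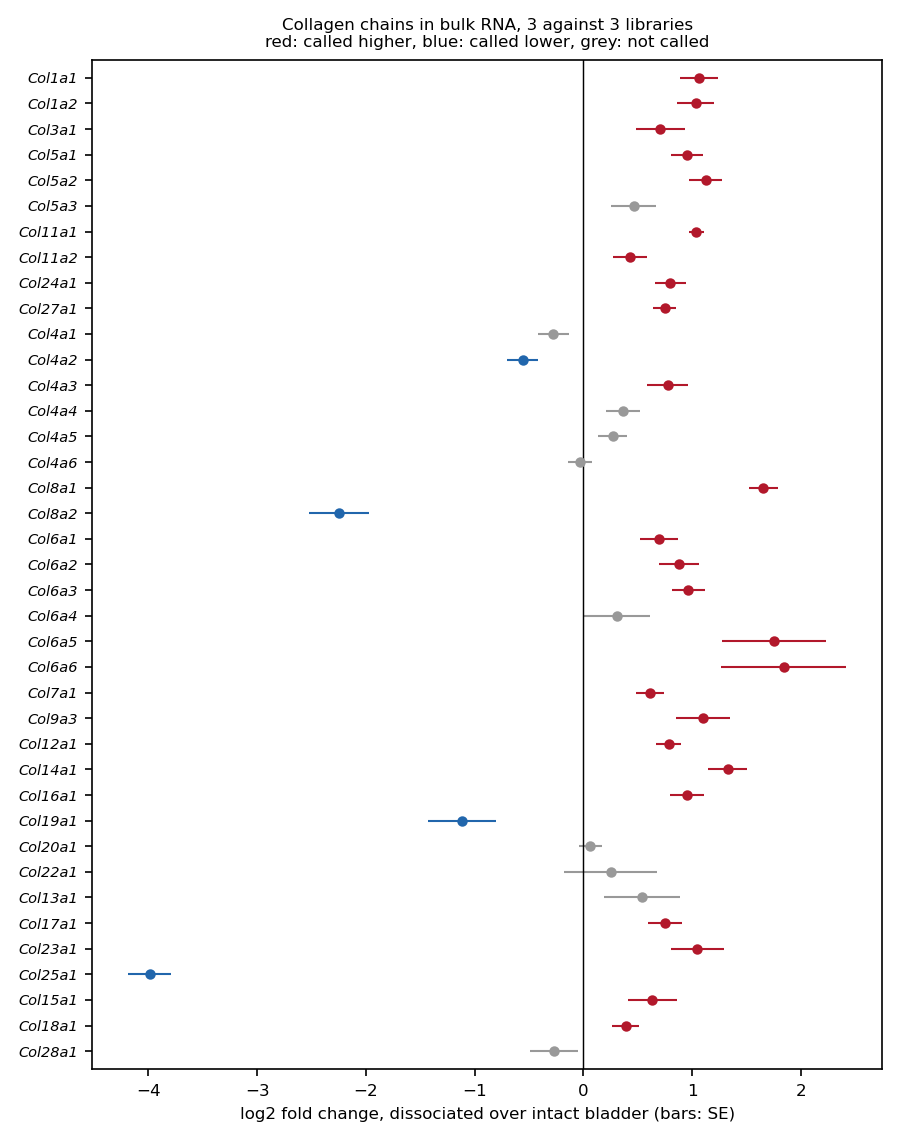
Log2 fold change of the 39 tested collagen chain genes in bulk RNA of dissociated over intact bladders, with bars for the SE, red for called higher, blue for called lower and grey for not called. Col8a1 and Col8a2 lie on opposite sides of 0, and Col25a1 has the lowest value.

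Grouped by the class of their highest single-cell level, the tested members divided between rises and falls. All 11 members highest in fibroblast-like cells were called higher in dissociated bladders (median 0.96), as were 7 of 11 of Schwann-like cells (0.63) and 4 of 7 of mesothelial-like cells (0.61, with 1 lower). Among these, Col22a1 (Schwann-like) and Col7a1 (mesothelial-like) were placed on only 3 UMIs each. Of the 3 members of smooth muscle-like cells 2 were called lower (median -1.12), and of the 3 of pericyte-like cells 1 was (-0.28). Markers of these classes moved too. All 10 smooth muscle markers were lower in dissociated bladders (median log2 fold change -3.844), their summed level being 43310 to 45780 CPM in intact and 2632 to 3877 in dissociated bladders, and 11 of 12 fibroblast markers were higher (median 1.35, 9666 to 11270 against 24250 to 32980 CPM). All 6 adipocyte markers (286.9 to 410.8 against 74.22 to 114.5 CPM) and 5 of 7 Schwann markers (73.18 to 90.99 against 47.53 to 57.48 CPM) were lower, and 5 of 9 pericyte markers were lower with 2 higher (1095 to 1167 against 533.8 to 579.8 CPM). No marker of these lists was at 0 in any library, and their part in the collagen changes was not tested. Scaling by library size alone moved the median of all genes from -0.029 to -0.147 and left 22 members higher and 5 lower, with Col11a2, Col15a1 and Col18a1 no longer called higher.

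Genes that make and mature collagen moved in the same comparison. Of 20 genes for chain modification, folding and secretion, 14 were called higher and none lower (median log2 fold change 0.584), with the largest rises in Colgalt2 (1.08), which adds galactose to collagen, P3h3 (0.91), a prolyl hydroxylase family member, and Creb3l1 (0.86), a transcription factor of the secretory pathway. Of 13 genes for processing and cross-linking, 12 were called higher and none lower (median 1.126). Lox, the enzyme that starts collagen cross-links, was at 43.2, 35.2 and 51.8 CPM in intact and 131, 134 and 145 in dissociated bladders (log2 fold change 1.66, SE 0.14, adjusted p = 5.24e-05), with no overlap. Pcolce2 and Adamts14, which act in propeptide removal, each had a log2 fold change of 1.59. Of 9 collagen receptors tested, 6 were called higher, led by the integrin chain Itga2 (2.24), Mrc2 (1.03) and Itga11 (0.99), and 2 lower. Itga1, which pairs with Itgb1 in a receptor for type IV collagen, was at 119, 184 and 111 CPM against 43.5, 43.0 and 43.6 (log2 fold change -1.67, adjusted p = 0.000234), and its partner Itgb1 had a log2 fold change of -0.59. Of 16 basement membrane partners, 9 were called higher and none lower, with Lama2 (1.72), Itga6 (0.97) and Nid1 (0.89) the largest.

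Within a class, the nuclei library was set against the whole-bladder cell libraries on summed counts. There was 1 nuclei library, assumed to vary like the 5 cell libraries, and the preparations also differ in gene list and depth. The TMM factor was 1.692 in fibroblast-like and 1.971 in urothelial-like nuclei against 0.804 to 1.057 and 0.722 to 1.177 in cells, so CPM without it would be relatively higher in nuclei. In fibroblast-like cells 24.6% of 12318 genes were called, 8.6% higher and 16% lower in nuclei, and of 32 members tested 3 were called higher and none lower. Against the 2 cell libraries of 12 months alone, the members' median log2 fold change was -0.109 against -0.037 over all genes. The spread in that fit came only from those 2 libraries, and the nuclei were assumed to vary like them, so no calls are given for it. Without the 3-month males 2 of 31 were called higher and 5 lower, where 956 and 1925 of 11947 genes were. With all libraries the members' median log2 fold change was -0.087 against -0.328 over all genes. It turned to 0.218 against -0.182 without the 22-month males, 0.069 against 0.227 with DESeq2, and 0.138 with DESeq2's size factors in edgeR. With those size factors the median of all genes was -0.102, the split of all called genes 1407 higher and 1616 lower against 1059 and 1973, and 4 members were called higher.

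The members called higher in fibroblast-like nuclei were Col4a4, Col5a3 and Col25a1. Col4a4 was at 2.57, 2.78, 2.61, 2.83 and 2.43 CPM in the cells of the 22-month males, the 3-month males, the 2 libraries of 12 months and the 24-month library, and at 15.8 in nuclei (log2 fold change 2.58, SE 0.55, adjusted p = 0.0146). Col5a3 was at 9.97, 1.52, 10.4, 12.7 and 9.43 CPM in cells and 65.9 in nuclei (2.98, SE 0.72, adjusted p = 0.0212). Col25a1 was at 1.58, 0.253, 1.04, 0 and 0 CPM in cells and 12.9 in nuclei (4.06, SE 1.21, adjusted p = 0.0419), on 9 UMIs in nuclei. In all 3 the nuclei library lay above every cell library, whereas Col1a1, at 6446, 1646, 4399, 3737 and 3561 CPM in cells and 999 in nuclei, lay below every cell library and was not called (log2 fold change -1.98, SE 0.73, adjusted p = 0.0818). All fibroblast-like nuclei were in Pi16 clusters. Within Pi16 clusters alone, in CPM of the cluster total without TMM factors, Col4a4 was at 26.17 in nuclei and 1.526 to 3.502 in whole-bladder cells, Col5a3 at 109.5 and 0 to 15.02, and Col25a1 at 21.42 and 0 to 0.1908. Col1a1, on that scale, was at 1658 in nuclei, within the range of 593.7 to 4074 in Pi16 clusters of whole-bladder cells and above all of them but the 22-month males.

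Smooth muscle RNA moved with these results. In fibroblast-like nuclei 8 of 10 smooth muscle markers were called higher (median log2 fold change 4.11), with a summed level of 504.2 to 1854 CPM in cells and 6944 in nuclei, and only Lmod1 was at 0, in the second 12-month library. In the nuclei library Myh11 in fibroblast-like nuclei was at 20.3% of its smooth muscle-like level, Acta2 at 22.6% and Des at 28.8%, while Col25a1 was at 3.16%. In urothelial-like nuclei the same genes were at 9.01%, 10.9% and 14.0%, and Col25a1 at 0.999%. The part of muscle RNA in the Col25a1 difference was not tested further. The call for Col25a1 in fibroblast-like nuclei was lost without the 3-month males (adjusted p = 0.058), without either 12-month library (0.0654 and 0.0552) and with at least 1000 UMIs per cell (0.202).

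In urothelial-like cells 35.2% of 13356 genes were called, 16% higher and 19.2% lower in nuclei, and of 28 members tested 3 were called higher and none lower. Against the 2 cell libraries of 12 months alone, the members' median log2 fold change was 1.794 against 0.002 over all genes. No calls are given for that fit, since its spread came only from those 2 libraries. Without the 22-month males 7 of 25 were called higher, where 2059 of 13480 genes were. It was 5 of 28 without the 3-month males (2217 of 13546 genes) and 5 of 29 with DESeq2 (2209 of 14106 genes). With all libraries the members' median was 1.004 against -0.023 over all genes. Col4a6 was at 14.0, 10.5, 10.02, 10.7 and 10.6 CPM in the cell libraries in the same order and 36.1 in nuclei (log2 fold change 1.70, SE 0.24, adjusted p = 0.00301). Col4a5 was at 10.3, 11.1, 17.5, 20.8 and 17.3 CPM in cells and 54.3 in nuclei (1.81, SE 0.37, adjusted p = 0.0102). These neighbouring chains form a network of type IV collagen in some basement membranes, and for both the nuclei library stood well above all cell libraries. Col25a1 was at 0.0443 CPM in the first 12-month library, 0 in the other cell libraries and 3.51 in nuclei on 16 UMIs (log2 fold change 7.04, SE 0.92, adjusted p = 0.00245), and its fitted fold against values at or near 0 is no bound. All 10 smooth muscle markers were called higher in urothelial-like nuclei (median 6.584, 28.01 to 199.9 CPM in cells and 2887 in nuclei), with none at 0, and their part was not tested. Col17a1 was at 14.9, 24.1, 12.9, 7.80 and 15.4 CPM in cells and 40.1 in nuclei and was not called (adjusted p = 0.0547).

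**Figure D5:**
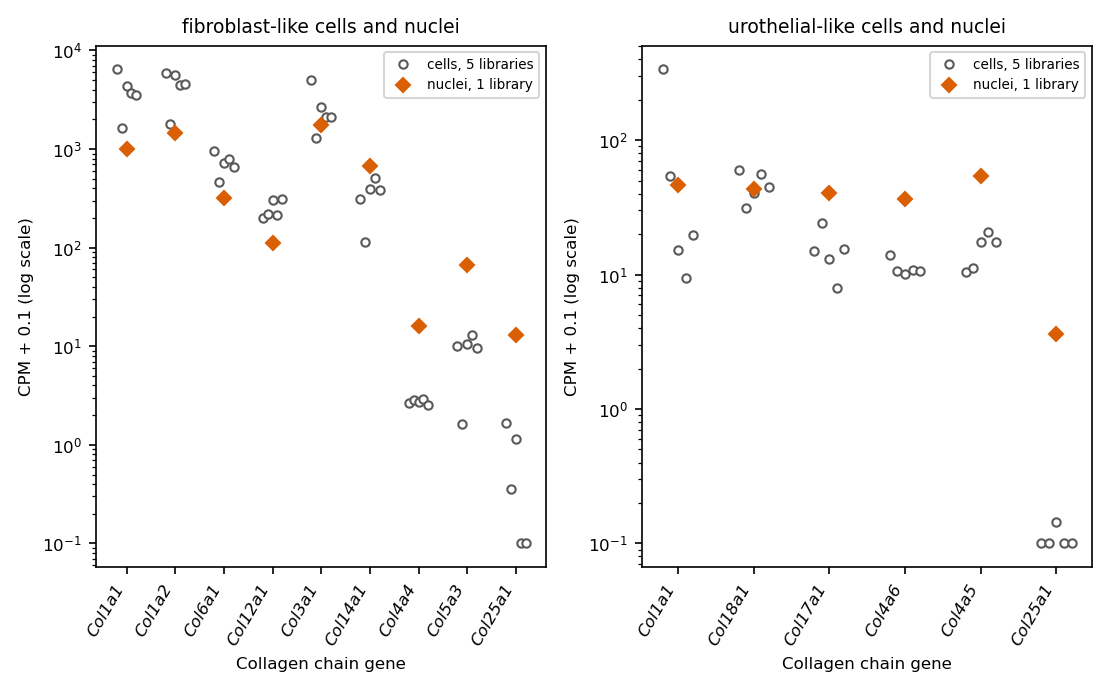
CPM + 0.1, on library totals multiplied by TMM factors, on a log axis of collagen chain genes in the 5 whole-bladder cell libraries (circles) and the nuclei library (diamond), for fibroblast-like cells on the left and urothelial-like cells on the right. The nuclei library lies above every cell library for Col4a4, Col5a3 and Col25a1 in fibroblast-like cells and for Col4a5, Col4a6 and Col25a1 in urothelial-like cells.

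Genes called higher in nuclei spanned a wide range of lengths. In RefSeq the 3 members called in urothelial-like nuclei span 214 to 420 kb (median 309) and the 3 called in fibroblast-like nuclei 45.1 to 420 kb (median 139), with 16 members above 0 and 16 below it in fibroblast-like cells spanning medians of 133 and 110 kb. In urothelial-like cells the 19 members above 0 had a median span of 129 kb and the 9 below it 38.2 kb, and this difference was not tested. In macrophage-like cells, with 70 nuclei, 1.13% of 7493 genes were called by edgeR (0.681% higher and 0.454% lower) and none of the 12 members tested, 0 of them also at an unadjusted p under 0.05. DESeq2 tested 3 members and called 0. Genes for modification, folding and secretion were lower in fibroblast-like nuclei in 5 of 18 cases, led by Serpinh1 (log2 fold change -3.48), the collagen chaperone, Creb3l1 (-3.28) and Crtap (-2.77), and higher in 1, Plod2 (2.94). Processing genes were lower in 3 of 11 (Pcolce -2.49, Loxl1 -1.76, Lox -1.42) and higher in none. Of the 7 receptors 1 was higher, Itga1 (5.80), and 1 lower, Itga11 (-1.55), and 3 of 16 basement membrane partners were higher, Dst (2.54), Itgb4 (1.99) and Lama4 (1.77). In urothelial-like nuclei 2 of 18 modification genes were higher (Colgalt1 1.14, P4ha1 0.98) and 3 lower (Ppib -2.28, Crtap -1.61, P3h2 -1.20), no processing gene of 8 was called, 2 of 9 receptors were higher (Itga1 6.11, Itga10 2.78) and 4 of 16 partners were higher, led by Dst (2.28), Lama4 (2.17) and Agrn (1.75).

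Fibroblast-like cells of the 2 detrusor libraries were compared with those of whole bladder. Of 11788 genes 5.3% were called, 3.51% higher and 1.79% lower in the detrusor libraries, and of 26 members 1 was higher and none lower. At an unadjusted p under 0.05 there were 8 of the 26 members and 3368 of the 11788 genes, which are similar shares. The members' median log2 fold change was 0.57 against -0.03 over all genes. Without the detrusor-enriched library, which left 1 detrusor library, the members' median was -0.174 against -0.073 over all genes. DESeq2 called 4 of 35 members higher, where 958 of 13695 genes were, and resolution 2 called 4 of 28, where 711 of 12245 genes were. Col4a4 was at 10.8 CPM in the detrusor-only and 6.09 in the detrusor-enriched library, and at 2.28, 2.52, 2.31, 2.58 and 2.18 in whole bladder, a difference of 1.84 on the log2 scale (SE 0.35, adjusted p = 0.0312) with no overlap. The nuclei comparison used the same whole-bladder libraries, so the Col4a4 difference found there shares its control values with this one. The nuclei and detrusor libraries also share a gene list of 31053 genes, while the whole-bladder cell libraries have lists of 27775 or 27998. Layer of the wall and gene list therefore cannot be told apart here. The call was lost without any one of 5 libraries, with adjusted p = 0.0645 without the 22-month males, 0.0549 without the 3-month males, 0.073 without the first 12-month library, 0.0695 without the 24-month library and 0.29 without the detrusor-only library. Col5a3 was at 64.3 and 14.8 CPM against 8.87, 1.38, 9.23, 11.6 and 8.44, and was not called (2.40, SE 0.67, adjusted p = 0.0713). Col14a1 was at 1860 and 545 CPM against 278, 104, 349.9, 463 and 345 (1.97, adjusted p = 0.0712), and both detrusor libraries lay above whole bladder for these chains as well. Col12a1 was at 26.2 CPM in the detrusor-only and 429.6 in the detrusor-enriched library, below and above the whole-bladder range of 178 to 276.

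The makeup of the fibroblast-like class moved with this comparison: among the cells tested, Car3 and Cxcl14 clusters were 0% of the detrusor-only, 38.0% of the detrusor-enriched and 22.1% to 52.1% of the whole-bladder fibroblast-like cells. Smooth muscle markers were called higher in 3 of 10 cases (460.1 to 1660 CPM in whole bladder, 1111 and 1643 in the detrusor libraries). No urothelial marker was called, although their sum was 373.5 to 2103 CPM in whole bladder against 8.902 and 315.7, with Cldn4, Elf3 and Upk2 at 0 in the detrusor-only library. The part of these in the collagen values was not tested. Of the gene lists, Plod2 (log2 fold change 2.11) of 18 modification genes, Loxl4 (2.33) of 10 processing genes, Itga1 (3.54) of 6 receptors and Lama2 (1.03) of 15 basement membrane partners were called higher and none lower.

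Age gave no call with all libraries and the filter on low counts. In fibroblast-like cells of 22 and 24 months against 3, 12 and 12 months, with a covariate for pools of males or of both sexes, 0% of 11622 genes were called by edgeR (310 at an unadjusted p under 0.05, 2 by DESeq2), and of 25 members 2 had an unadjusted p under 0.05 and none were called by either tool. Col1a1 was at 5630 and 3149 CPM in the older libraries (22-month males and 24 months) and 1439, 3885 and 3373 in the younger ones (3-month males and both of 12 months), for a log2 difference of 0.77 (SE 0.53). These overlapped. Without the 24-month library, which left the age contrast to 1 male library against 1, the members' median log2 fold change was 1.444 against 0.002 over all genes, with Col1a1 at 1.97. The spread in that fit came only from the 2 libraries of 12 months, and the male libraries were assumed to vary like them, so no p-value is given for it. In urothelial-like cells 0% of 12691 genes were called (335 unadjusted, 0 by DESeq2), with 9 of 20 members at an unadjusted p under 0.05 and none called. With no filter 5 of 40 members were called higher there, where 67 of 18581 genes were. Without the first 12-month library 3 of 20 were, where 21 of 12145 genes were. Leaving out the 24-month library left 1 older library, and the members' median log2 fold change was 2.131 against 0 over all genes. Col1a1 there was at 293 and 16.8 CPM in the older and 46.4, 13.0 and 8.05 in the younger libraries, and the summed fibroblast markers in those urothelial-like cells were at 3212 and 996.9 against 1784, 1141 and 843.1 CPM. The part of that fibroblast RNA was not tested.

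Sections of 22 and 14 months, 2 of each, gave 0% of 14995 genes called by edgeR (2488 at an unadjusted p under 0.05, 418 by DESeq2), and none of 36 members (10 unadjusted, 5 by DESeq2, of which 2 were higher and 3 lower at 22 months). Col12a1 was at 217 and 278 CPM at 22 months and 158 and 149 at 14 months, with no overlap (log2 fold change 0.69, SE 0.13, adjusted p = 0.126). Col4a5 was at 46.3 and 36.6 CPM against 58.9 and 69.4, apart in the other direction (-0.63, adjusted p = 0.164). Col1a1 was at 900 and 1295 CPM against 675 and 1158, with overlap.

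Chains that lie next to each other in the genome had like levels across classes in most cases, but so did some chains on different chromosomes. Neighbouring pairs were not compared with all other pairs. Col4a1 and Col4a2 overlap by 85 bases at their starts on chr8, and Col4a3 and Col4a4 by 114 bases on chr1. In bulk libraries, reads in those bases could be counted for either gene if strand was not used, which is not given in the sources used here. The levels compared below are from droplet libraries, whose UMIs were counted near the 3′ end. Over 53 combinations of library and class, which share libraries and depth, the Pearson correlation of log levels was 0.95 for Col4a1 and Col4a2, 0.716 for Col4a3 and Col4a4, and 0.832 for Col4a5 and Col4a6, whose starts are 1274 bases apart on chrX. Col6a1 and Col6a2, 85161 bases apart on chr10, had 0.965, and Col1a1 and Col1a2, on different chromosomes, 0.969. Col6a4 and Col6a5, which are 27854 bases apart on chr9, had -0.058, and Col8a1 and Col8a2 had 0.461. The member most like Col25a1 was Col19a1 (0.672), the member most like Col1a1 was Col1a2, and that most like Col3a1 was Col6a1 (0.958). These values are a description across classes and carry no test.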

How the data were processed

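Per the submitters' processing notes, the reads were processed with bcl2fastq, Cell Ranger, Space Ranger, Subread and featureCounts on the mm10 build, with no versions or settings given. The deposited tables hold whole-number counts, UMIs per gene and barcode for droplet libraries and sections and reads per gene for bulk libraries, and the authors' processing before that is not given further in the sources used here. Every column was matched to a sample. Cells and spots under 500 UMIs, and cells above 20% mitochondrial counts, were left out. Doublets were scored by simulated pairs within each library and removed at 0.8% per 1000 cells, which took out 8 to 660 cells. Free RNA was not subtracted. Cells were clustered per library (scanpy 1.11.5, 2000 variable genes without collagen chains, 30 components, 15 neighbours, Leiden resolution 1). Clusters were named from marker lists when at least 3 markers were raised and the score was at least 0.25, and these naming conditions were settled after the clusters had been seen.

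Mitochondrial genes were left out because the tables of the 2 male libraries hold none of their counts. Counts were summed per library and class and tested with edgeR 4.0.16 (TMM scaling, filterByExpr, robust quasi-likelihood, two-sided, Benjamini-Hochberg over all genes tested, called at 0.05) in R 4.3.3. CPM in these comparisons were computed on totals multiplied by TMM factors, so 1 library can have different CPM in different comparisons. The SE of a log2 fold change was taken from its F value. The scripts were tested on simulated data, and DESeq2 1.42.0, other scalings, filters, cell filters and resolutions, doublets kept, and each library left out were alternatives. Genes were ranked by level to choose members and to list those leading a class. Bulk counts were not divided by length, so ranks by bulk CPM are not corrected for it. Intervals and detection limits of 3 counts cover counting error only.

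The members and gene lists were chosen with earlier results of these data known. The members named are the 3 of each structural group with the highest bulk CPM, up to 5 called in each direction of a comparison, the top 3 of each class and the class of each member's highest level, while other genes are the first 3 called per list and direction. Members outside that rule in a comparison, such as those with the lowest p, Col1a1, and those singled out in clusters, regions and promoters, were chosen after their values had been seen. The fold changes followed under every alternative were narrowed to these after seeing the data.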

Additional observations from a re-analysis of the deposited data

How the results depend on the processing

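For bulk RNA, 25 members were called higher and 4 lower, and leaving out 1 library gave 19 to 26 higher and 3 to 4 lower. A test against a log2 fold change of at least 1 (glmTreat) called 1 of 39 members higher and 2 lower, where 972 and 818 of 16525 genes were. With the replicate block the counts were 25 and 5, where 4803 and 5203 of all genes were, and Col6a6 was no longer called. Deviations of same-numbered bulk libraries from their group correlated at 0.202, 0.344 and -0.07, and those of differently numbered ones at -0.437 to 0.277. Whether same-numbered libraries share animals cannot be told from so few values. For fibroblast-like nuclei, members called lower were 0, 1 with DESeq2, 8 against the 12-month cell libraries only, 3 with collagen chains kept for clustering and 1 with the Car3 and Cxcl14 clusters added, an alternative chosen after seeing the data. All genes called lower there were 1973, 1654, 2352, 2005 and 1996 in the same order. Leaving out 1 library gave 2 to 3 members higher and 0 to 5 lower, the 5 without the 3-month males, where 1434 to 2070 of all genes were called lower. For urothelial-like nuclei, members called higher were 3, 5 with DESeq2 and 13 against the 12-month libraries, with 0 lower. All genes called higher there were 2139, 2209 and 3171. With 1 library left out 3 to 7 members were called higher, 7 without the 22-month males and 5 without the 3-month males, where 1430 to 2217 of all genes were. Macrophage-like nuclei gave 0 members throughout. All genes called there were 85, 647 of 1818 tested with DESeq2, 1187 with no filter and 153 with collagen chains kept for clustering. They were 0 with doublets kept and 869 at resolution 2, but those fits also had 4 libraries where the main fit had 5. With 1 library left out they were 14 without the 22-month males, 4 without the 3-month males, 634 without the first 12-month and 0 without the 24-month library. In detrusor fibroblast-like cells 1 was called higher, 4 with DESeq2, 2 with at least 1000 UMIs, 4 at resolution 2, and 0 to 1 with 1 whole-bladder library left out. All genes called there were 625, 1897 with DESeq2, 858 with at least 1000 UMIs, 1163 at resolution 2 and 140 to 582 with 1 whole-bladder library left out (140 without the first 12-month, 166 without the 24-month library, 229 without the 22-month and 284 without the 3-month males). Leaving out a detrusor library left 1 in that group. The members' median log2 fold change was then 0.859 without the detrusor-only and -0.174 without the detrusor-enriched library. For age, no fibroblast-like member was called with either 12-month library left out. Urothelial-like members called higher were 3 of 20 without the first 12-month library, where 21 of 12145 genes were, and 5 of 40 with no filter, where 67 of 18581 were. Leaving out an older library left 1 in that group. The members' median log2 fold change was then -0.23 in fibroblast-like and 0.546 in urothelial-like cells without the 22-month males, and 1.444 and 2.131 without the 24-month library. Without the 3-month males the medians were -0.231 and 0.544. With either male library left out, the sex covariate takes up the other. Both fits thus set the 24-month library against those of 12 months and are 1 contrast. Sections gave 2 of 35 members higher and 3 lower with DESeq2, where 189 and 229 of 14599 genes were, and 1 of 44 higher with no filter, where 139 of 20586 genes were. Leaving out 1 section left 1 section of that age. The members' median log2 fold change was then -0.241 to 0.133, against -0.01 to 0.013 over all genes. Col1a1, not called in these comparisons with all libraries, changed sign. In sections it was 0.26, and -0.0775 to 0.70 with 1 section left out (-0.0775 without the first 14-month and -0.02 without the second 22-month section). In detrusor libraries it was 0.03, and -0.37 with at least 1000 UMIs, -0.16 with the added clusters, -0.86 at resolution 2, and -1.07 to 0.67 with 1 library left out, -1.07 without the detrusor-enriched library and -0.16 without the 3-month males. In urothelial-like nuclei it was -0.90, 1.90 against 12 months and -1.22 to 0.93 with 1 library left out, 0.93 without the 22-month males, and in macrophage-like nuclei -0.89, and -1.29 to 1.47, 1.47 without the 22-month males. By age in fibroblast-like cells it was 0.77, and -0.20 to 1.97 with 1 library left out. The values of -0.19 and -0.20 came without the 22-month and the 3-month males, which is the same contrast. The causes were not tested. With other cell filters, doublets kept, resolution 2, other averaging or the added clusters, 37 to 40 of 40 members kept the class of their highest level.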
